A study of Mus musculus with 5 samples.

Results

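The expression of 10 genes that mark the endothelium of mouse lung was followed across 5 pools of whole-lung RNA: Pecam1, Cdh5, Cldn5, Icam2, Plvap, Foxf1, Vwf, Emcn, Car4 and Ramp2. They were taken as a list of names, and each was read from probe sets that the platform annotation assigns to that gene alone. All 10 genes were found among the 12393 genes with a name on the array, and all 10 lay above the noise floor in every pool. Where a gene had more than 1 such probe set, the one with the highest mean intensity stood for it and the other was kept as a check.

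Each pool was hybridised to 1 array, and RNA of several animals was combined on it to even out individual variation, per the design text. The induced pool came from mice labelled SM22-tet-BMPR2delx4+ on doxycycline, with a right ventricular pressure of 50 ± 8 mmHg, and the uninduced pool from the same genotype without doxycycline, at 30 ± 3 mmHg. The third transgenic pool, SM22-rtTA with doxycycline, was also at 30 ± 3 mmHg and carries the doxycycline-dependent activator without the mutant receptor. The titles of these 3 pools give 8 weeks without saying of what. The hypoxic pool was from fvb/n mice, 8 weeks old and kept hypoxic for 4 weeks, at 50 ± 8 mmHg, and the wild-type pool from fvb/n mice of the same age, at 30 ± 3 mmHg. The strain of the transgenic mice, the number of animals per pool and the kind of error after each pressure are not stated. BMPR2delx4+ is a mutant type 2 receptor for bone morphogenetic proteins that acts as a dominant negative, and the SM22 promoter directs it to smooth muscle, so that the endothelium is not the targeted cell. With 1 array per condition there was no test, and the values below describe these pools only. In whole lung, a lower intensity can come from fewer endothelial cells or from less RNA per cell, and the data cannot tell these apart.

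Endothelial cells line the pulmonary arteries, veins and lymphatics and form the dense capillary net around the alveoli. They hold together through adherens junctions built on VE-cadherin (Cdh5) and tight junctions built on claudin-5 (Cldn5), with PECAM-1 (Pecam1) and ICAM-2 (Icam2) at the contacts between cells. Lung capillaries have general capillary cells, which carry Plvap, and thin gas-exchange cells, in which carbonic anhydrase 4 (Car4) is a marker. Foxf1 is a forkhead transcription factor of lung mesenchyme and capillary endothelium that acts downstream of hedgehog and upstream of vessel formation. Von Willebrand factor (Vwf) is stored in the endothelium of larger vessels and in platelets. Endomucin (Emcn) is a sialomucin of capillaries and veins, and Ramp2 is the partner of the receptor Calcrl that makes it a receptor for adrenomedullin.

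Intensities below are linear values after each array was scaled, with a noise floor at 276, and are comparable between pools for 1 gene but not between genes. A gene counts as measured if any pool exceeded the floor, which left 8590 named genes. A gene was called higher or lower where the ratio was at least 1.5-fold and the brighter pool was above the floor. The only spread between transgenic pools without raised pressure is that between SM22-rtTA and uninduced BMPR2delx4+, which also differ in genotype and in doxycycline. Their log2 ratios had an SD of 0.34 across the genes that exceeded the floor in each pool. Markers of other tissues set some pools apart. Of 15 measured kidney genes 14 were called higher in wild type than in the transgenic normal-pressure pools, and their summed intensity was 63699 there against 2239 to 4583 in the other pools. Of 16 skeletal muscle genes all were called higher in the induced pool than in its control, with a summed intensity of 82719 there, 21583 in the hypoxic pool and 4551 to 7370 in the 3 normal-pressure pools.

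**Figure D1:**
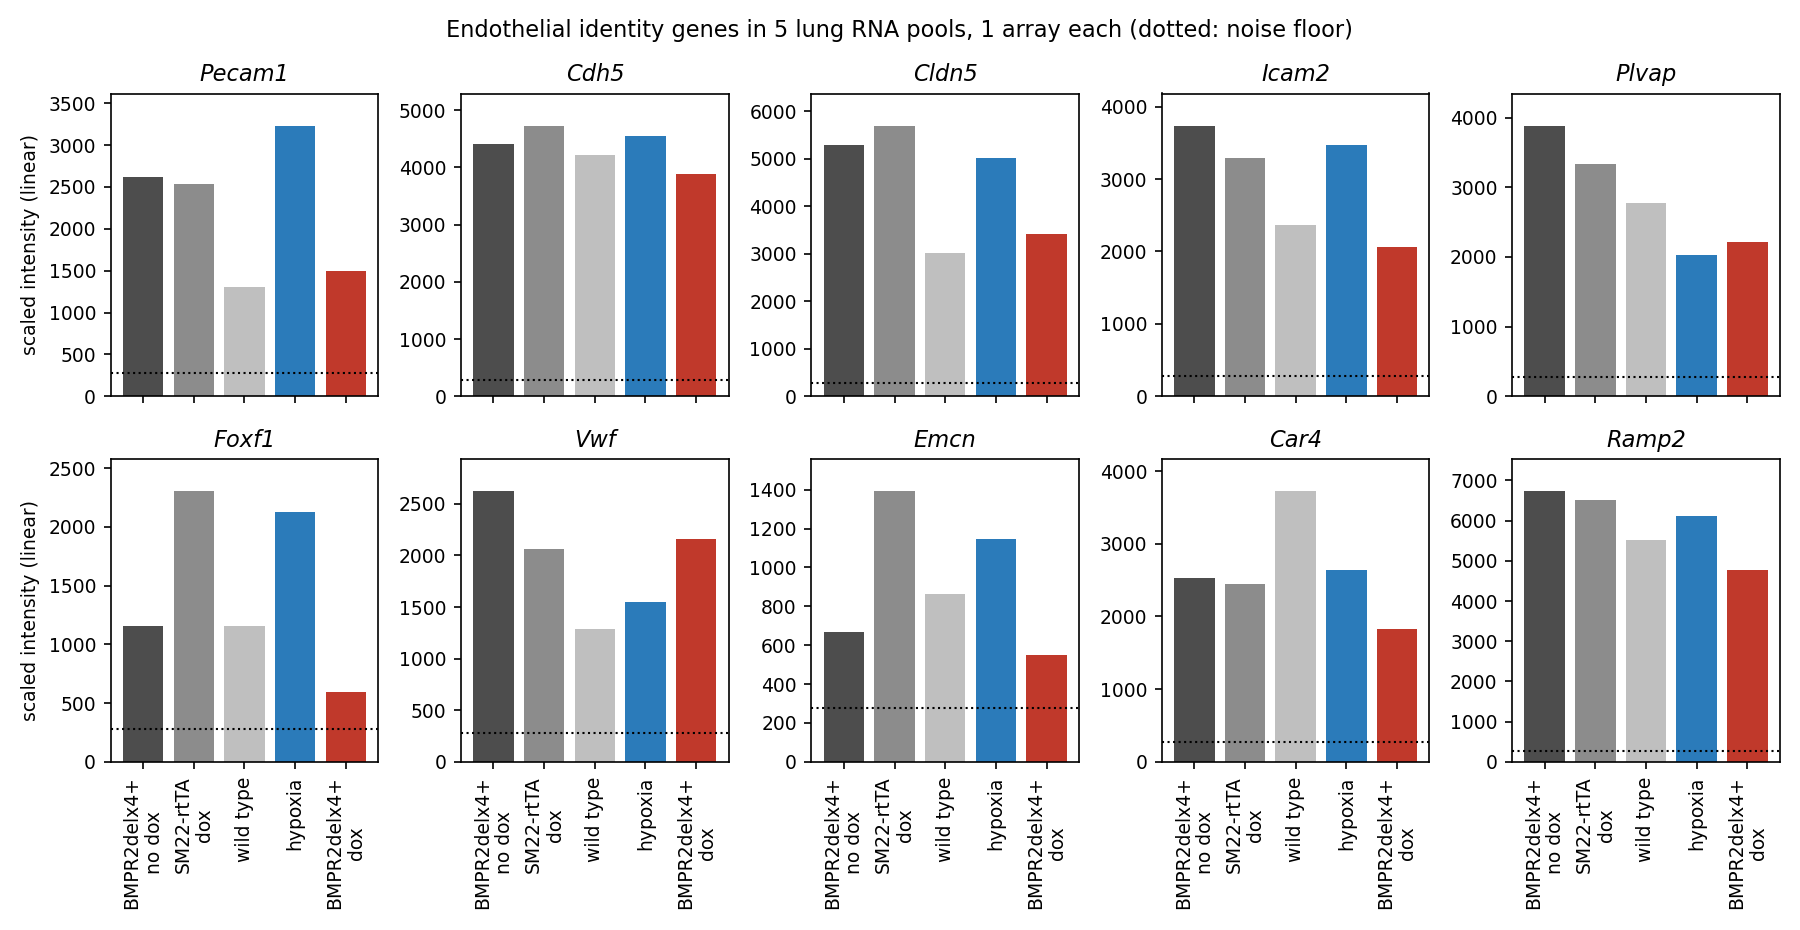
Scaled linear intensity (y axis from 0, a separate scale for each gene) of the 10 endothelial genes in the 5 pools, 1 bar per pool and 1 array per bar, with the noise floor of 276 as a dotted line. The induced pool (red) is the lowest bar for Cdh5, Icam2, Foxf1, Emcn, Car4 and Ramp2, the wild-type pool for Pecam1, Cldn5 and Vwf, and the hypoxic pool for Plvap.

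The junction and adhesion genes came first. Pecam1, an adhesion molecule of endothelial contacts that is also on platelets and leukocytes, was at 1501 in the induced pool, 2619 in uninduced BMPR2delx4+, 2539 in SM22-rtTA, 3228 in hypoxia and 1308 in wild type. The 2 transgenic normal-pressure pools were close, hypoxia was the highest, and the induced and wild-type pools were the low ones. Cdh5 was at 3893 in the induced pool, 4415 in uninduced BMPR2delx4+, 4724 in SM22-rtTA, 4546 in hypoxia and 4216 in wild type. This was the flattest of the 10 genes, with 1.21-fold between its highest and its lowest pool. Cldn5, the tight junction claudin of endothelium, was at 3407 in the induced pool, 5289 in uninduced BMPR2delx4+, 5692 in SM22-rtTA, 5016 in hypoxia and 3024 in wild type. Its low pools were the same as for Pecam1, induced and wild type. Icam2, a leukocyte adhesion ligand present on resting endothelium, was at 2067 in the induced pool, 3734 in uninduced BMPR2delx4+, 3292 in SM22-rtTA, 3468 in hypoxia and 2363 in wild type. Here too the induced and wild-type pools lay apart from the other 3, with the induced pool lowest.

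The capillary genes had other orders. Plvap, which builds the diaphragms of caveolae and fenestrae, was at 2212 in the induced pool, 3881 in uninduced BMPR2delx4+, 3338 in SM22-rtTA, 2023 in hypoxia and 2775 in wild type. Both elevated-pressure pools were below all 3 normal-pressure pools, a pattern that no other of the 10 genes had. Car4, an enzyme anchored on the capillary surface that handles carbon dioxide, was at 1825 in the induced pool, 2524 in uninduced BMPR2delx4+, 2444 in SM22-rtTA, 2637 in hypoxia and 3718 in wild type. It was the one gene of the 10 that was highest in wild type. Car4 is also known as a gene of the kidney tubule, and the kidney genes given above were high in the same pool; their part in the Car4 value was not tested. Emcn was at 550 in the induced pool, 670 in uninduced BMPR2delx4+, 1391 in SM22-rtTA, 1146 in hypoxia and 863 in wild type. For Emcn the uninduced pool was nearer to the induced pool than to SM22-rtTA.

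Foxf1 spanned the widest range of the 10 genes, 3.85-fold. It was at 597 in the induced pool, 1161 in uninduced BMPR2delx4+, 2302 in SM22-rtTA, 2130 in hypoxia and 1153 in wild type. The uninduced and wild-type pools were level, SM22-rtTA and hypoxia were high, and the induced pool stood alone at the bottom. Vwf was at 2162 in the induced pool, 2619 in uninduced BMPR2delx4+, 2066 in SM22-rtTA, 1552 in hypoxia and 1288 in wild type. It was lowest in the fvb/n pools, and the induced pool lay between the transgenic controls. Ramp2 was at 4767 in the induced pool, 6725 in uninduced BMPR2delx4+, 6509 in SM22-rtTA, 6107 in hypoxia and 5515 in wild type. Apart from Cdh5 it had the narrowest range, 1.41-fold.

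Promoter sequence was at hand for 3 of the 10 genes, from the RefSeq table on GRCm38.p6, and is shown for these: Cldn5, low in the induced and wild-type pools, Emcn, high in SM22-rtTA, and Car4, high in wild type. Each run is the 250 bases before the annotated start, 5′ to 3′ on the gene's strand, which is the plus strand for all 3. They lie at chr16:18776597-18776846 for Cldn5, chr3:137340828-137341077 for Emcn and chr11:84957504-84957753 for Car4. Capitals mark exact matches, on either strand, to short words read by families of factors that act in endothelium. The word AGGAAG and its relative with another first base, CGGAAG, are cores for ETS factors. Forkhead factors, to which Foxf1 belongs, read GTAAACA, SOX factors read AACAAT, and the zinc-finger factors related to Gata2 read AGATAA.
Cldn5: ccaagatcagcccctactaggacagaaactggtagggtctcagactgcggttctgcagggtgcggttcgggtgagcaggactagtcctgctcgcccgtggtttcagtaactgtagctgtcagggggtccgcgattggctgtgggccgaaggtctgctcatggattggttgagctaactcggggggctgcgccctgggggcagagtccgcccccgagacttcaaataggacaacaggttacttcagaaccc
Emcn: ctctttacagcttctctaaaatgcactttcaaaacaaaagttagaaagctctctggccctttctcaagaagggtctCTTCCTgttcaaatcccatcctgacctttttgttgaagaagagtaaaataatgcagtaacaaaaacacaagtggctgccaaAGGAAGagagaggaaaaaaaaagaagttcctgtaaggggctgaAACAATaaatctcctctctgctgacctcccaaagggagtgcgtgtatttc
Car4: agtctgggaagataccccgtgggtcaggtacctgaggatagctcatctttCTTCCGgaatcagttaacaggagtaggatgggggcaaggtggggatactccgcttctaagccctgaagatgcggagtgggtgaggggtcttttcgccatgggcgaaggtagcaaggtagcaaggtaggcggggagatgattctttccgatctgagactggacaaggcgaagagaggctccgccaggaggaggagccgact

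The Emcn window held AGGAAG at 93 to 88 bases before the start on its own strand and at 174 to 169 on the opposite strand, and AACAAT at 50 to 45. The Car4 window held CGGAAG once, on the opposite strand, at 200 to 195 bases before the start, and the Cldn5 window held none of these letters. Of 32841 windows of the same length in the table, 29.5% held AGGAAG, 13.6% CGGAAG, 9.99% AGATAA, 3.17% GTAAACA and 9.43% AACAAT on either strand. The windows differed in base composition, with 59.6% G or C for Cldn5, 56.4% for Car4 and 40.8% for Emcn, against a median of 52.4% over all windows. A match of these short words is a description of the letters and says nothing about binding.

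Induction of the mutant receptor was compared first with the same genotype without doxycycline. Among the 10 genes, 5 were called lower and 0 higher: Foxf1 by 1.94-fold (log2 ratio -0.96), Icam2 by 1.81-fold (-0.85), Plvap by 1.75-fold (-0.81), Pecam1 by 1.74-fold (-0.80) and Cldn5 by 1.55-fold (-0.63). Over all measured genes 2.57% were called lower and 5.04% higher in this comparison, a background with a median log2 ratio of 0.00 against -0.57 for the 10 genes. All 10 genes were below the control at some size, as were 41.5% of measured genes, ties at the floor not counted as below. The ratios of the other 5 were 1.41-fold lower for Ramp2, 1.38-fold for Car4, 1.22-fold for Emcn, 1.21-fold for Vwf and 1.13-fold for Cdh5, all within 1.5-fold. The genes of the cell contacts thus differed among themselves: Pecam1, Cldn5 and Icam2 were past the threshold, while Cdh5 at this probe set was not. Icam2, Plvap and Foxf1 were also below all 3 normal-pressure pools, a rule met by 1.32% of measured genes, while for Pecam1 and Cldn5 the wild-type pool lay lower still.

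**Figure D2:**
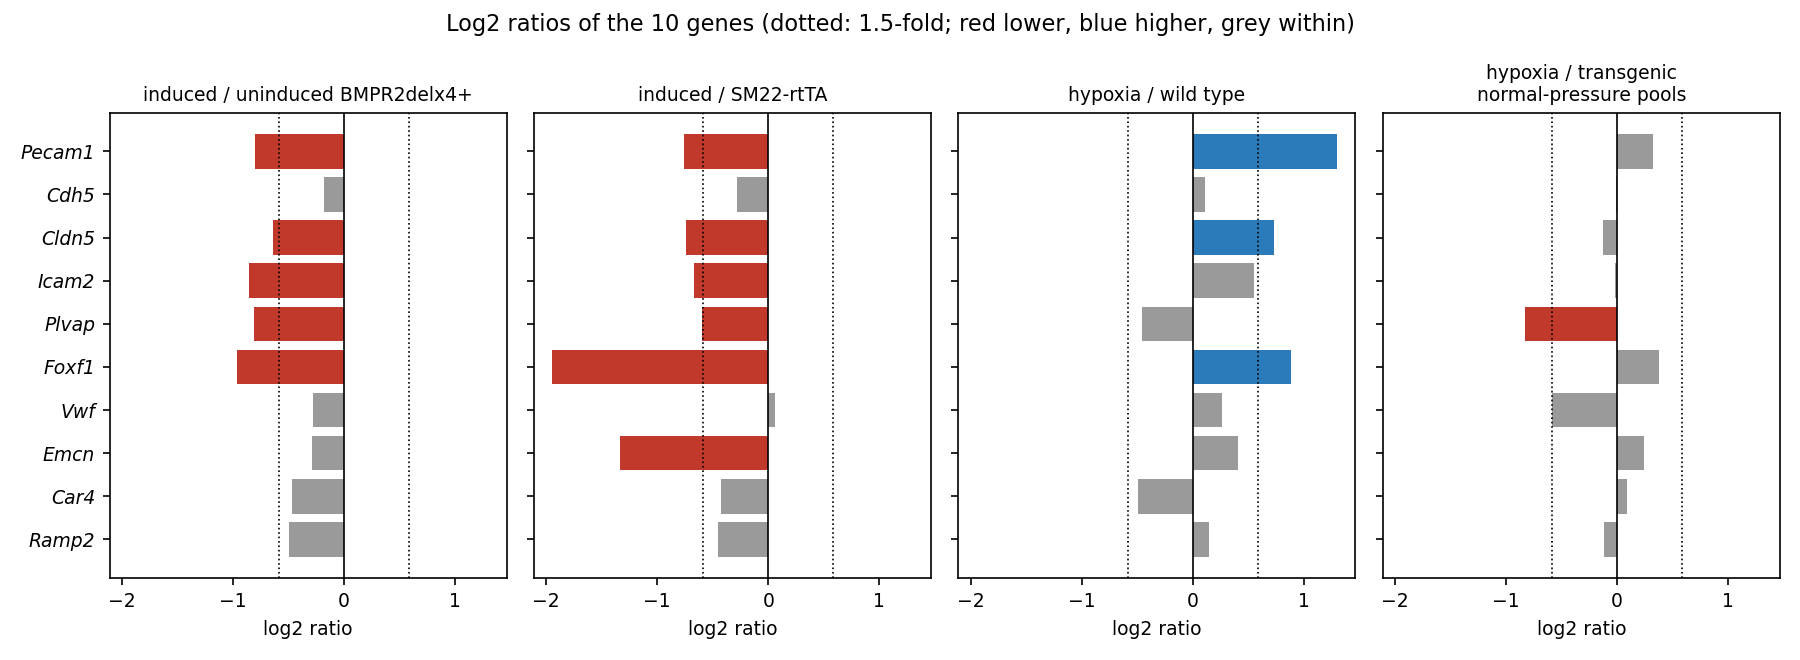
Log2 ratios of the 10 endothelial genes (x axis) in 4 comparisons, 1 panel each, without error bars because each pool is 1 array; dotted lines mark 1.5-fold, red bars are called lower and blue bars higher. The bars of the induced pool point left in both of its panels, apart from Vwf at 0.07 against SM22-rtTA, while the hypoxic bars point right for 8 genes against wild type and for 4 against the transgenic pools.

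Against SM22-rtTA, which also received doxycycline, 6 of the 10 genes were called lower in the induced pool and 0 higher, where 6.11% of measured genes were called lower and 9.72% higher. Foxf1 was 3.85-fold lower, Emcn 2.53-fold, Pecam1 1.69-fold, Cldn5 1.67-fold, Icam2 1.59-fold and Plvap 1.51-fold. Both comparisons share the induced array, so the second is not an independent repeat. Pecam1, Cldn5, Icam2, Plvap and Foxf1 were called lower against both controls, as were 1.55% of measured genes. Plvap lost its call against SM22-rtTA when a pseudocount of 100 replaced the floor (log2 ratio -0.57 in place of -0.59), which left 5 genes lower there. For Pecam1, Cldn5, Icam2 and Plvap the 2 controls were 1.03-fold, 1.08-fold, 1.13-fold and 1.16-fold apart, less than their distance from the induced pool. Vwf was the exception among the 10, with log2 ratios of -0.28 against the uninduced pool and 0.07 against SM22-rtTA. Platelet genes, which mark another source of Vwf, were higher in the induced pool. Against the uninduced pool 4 of 6 measured (Clec1b, Pf4, Ppbp and Itga2b) were called higher, where 5.04% of measured genes were. Against SM22-rtTA, where 9.72% of measured genes were called higher, 3 of the 6 were (Ppbp, Itga2b and Clec1b). A further 3 listed platelet genes were at the floor in all pools. The summed intensity of the 6 was 5879 in the induced pool and 1877 to 4134 in the others, and their part in the Vwf value was not tested. Of the 10 genes, 6 had their lowest value of all 5 pools in the induced pool (Cdh5, Icam2, Foxf1, Emcn, Car4 and Ramp2), as did 11.8% of measured genes, ties at the floor not counted.

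**Figure D3:**
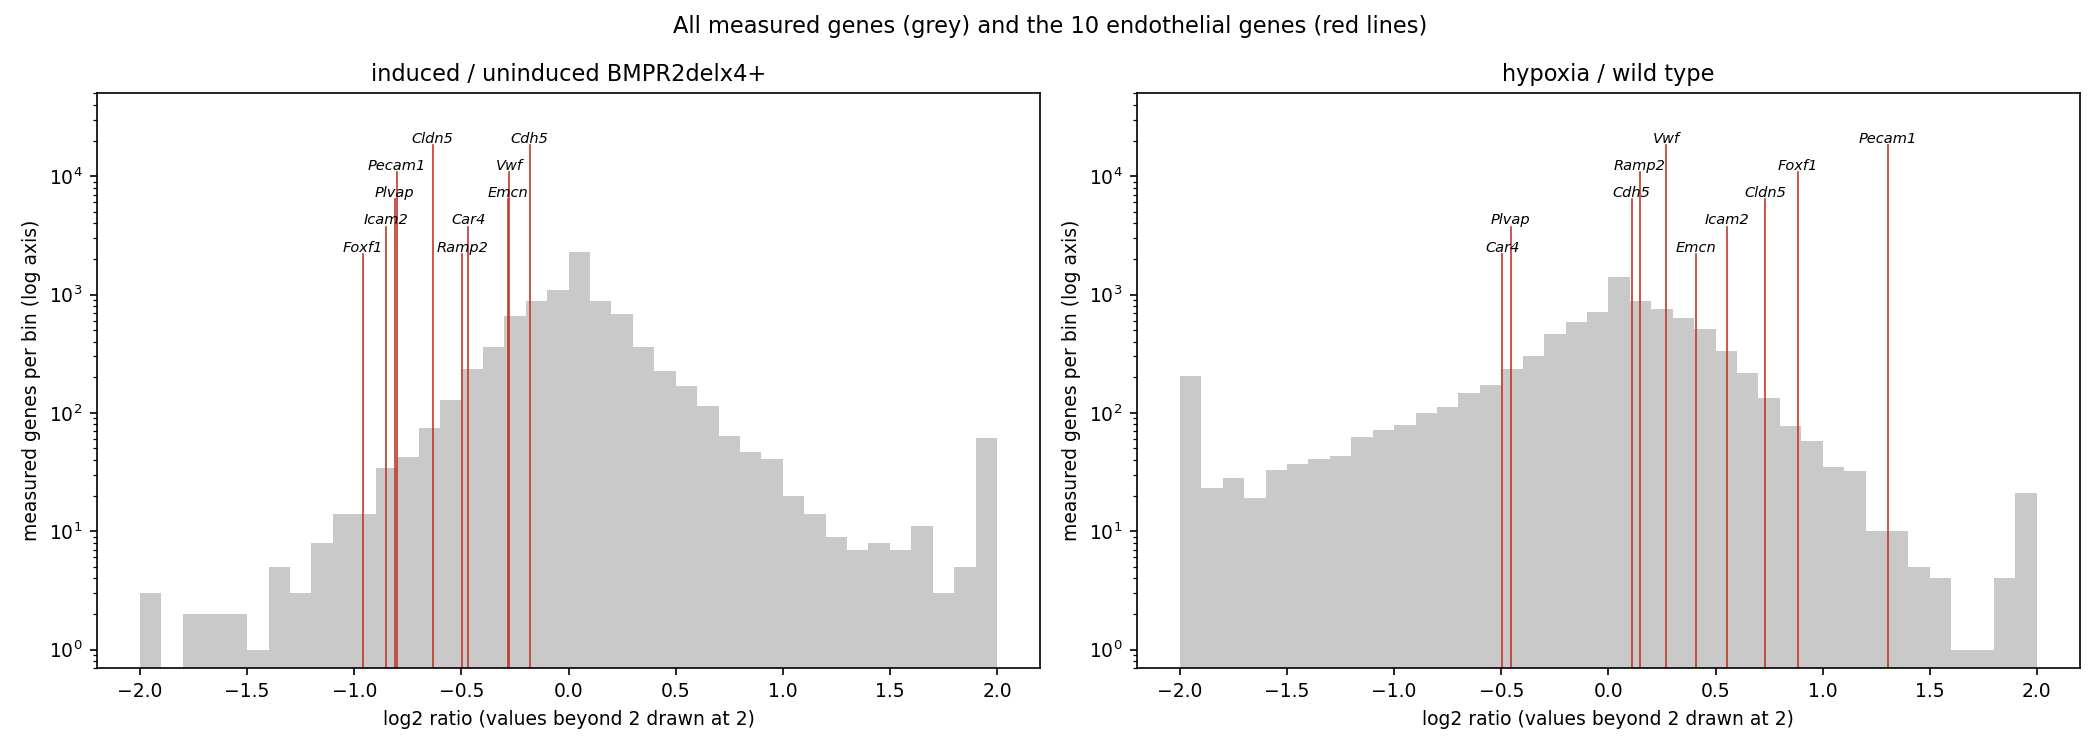
Histograms of the log2 ratio of all 8590 measured genes (grey, count on a log axis, bins of equal width) for induction and for hypoxia against their matched controls, with the 10 endothelial genes as labelled red lines. After induction the lines lie left of 0, from -0.96 (Foxf1) to -0.18 (Cdh5); in hypoxia they spread from -0.50 (Car4) to 1.30 (Pecam1).

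The position among all measured genes shows how far out these ratios were on the same arrays. After induction against the uninduced pool, the share of measured genes with a lower ratio was 0.524% for Foxf1, 0.757% for Icam2, 0.978% for Plvap and 1.01% for Pecam1. For Cldn5 the share was 2.10%, for Ramp2 3.92%, for Car4 4.58%, for Emcn 11.6%, for Vwf 12.2% and for Cdh5 20.4%.

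Hypoxia was compared with wild type of the same strain. Pecam1 was called higher by 2.47-fold (3228 against 1308), Foxf1 by 1.85-fold (2130 against 1153) and Cldn5 by 1.66-fold (5016 against 3024), and 0 of the 10 genes were called lower. In this comparison 7.60% of measured genes were called higher and 11.9% lower, a split of 39.0% higher among all calls that became 50.2% after quantile normalization. The median log2 ratio was 0.34 for the 10 genes and 0.03 for all measured genes. Icam2 was 1.47-fold higher, and was called higher with values as deposited and after quantile normalization, which made 4 genes. Emcn was 1.33-fold higher, Vwf 1.20-fold, Ramp2 1.11-fold and Cdh5 1.08-fold. Plvap (1.37-fold lower) and Car4 (1.41-fold lower) lay on the other side. Pecam1, Cldn5 and Foxf1 were thus called lower after induction and higher in hypoxia, each against the matched control, as were 0.594% of measured genes. Pecam1 alone was also above all 3 normal-pressure pools, a rule that 4.19% of measured genes met.

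The result for hypoxia depended on the control. Against the mean of the 2 transgenic normal-pressure pools the 10 genes had a median log2 ratio of -0.01, and 0 were called higher, with 12.2% of measured genes called higher and 4.28% lower. Plvap was called lower, at 2023 against 3599, or 1.78-fold, and 1.15% of measured genes had a lower ratio. Vwf, at a log2 ratio of -0.58, was lower by just less than the threshold. The 3 genes called against wild type were at 0.32 (Pecam1), 0.38 (Foxf1) and -0.13 (Cldn5) on the log2 scale here. For Cdh5, Icam2, Foxf1 and Emcn the hypoxic value lay between the 2 transgenic pools, and for 8 of the 10 genes it lay within the range of all 3 normal-pressure pools, Pecam1 (above) and Plvap (below) being the exceptions. Among measured genes 30.4% lay between the transgenic pools and 56.4% within the wider range, ties at the floor included. With values as deposited, the median of all measured genes shifted to -0.12 in this comparison, the calls changed from 73.9% to 46.2% higher, and Vwf was called lower beside Plvap; relative to that shift the median of the 10 genes was -0.05.

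The normal-pressure pools themselves differed for several of the 10 genes. Wild type was below the mean of the 2 transgenic pools in 9 of 10 genes, as in 47.0% of measured genes, ties at the floor not counted as below. Pecam1 (1.97-fold), Cldn5 (1.81-fold) and Vwf (1.81-fold) were called lower and 0 were called higher. Car4 was higher by just less than the threshold (log2 ratio 0.58). Among measured genes 10.2% were called lower and 16.9% higher, and the median log2 ratio was -0.44 for the 10 genes and 0.00 for all. The number called lower depends on the scaling, 6 with values as deposited and 5 after quantile normalization, where the all-gene medians were -0.14 and -0.06 and the share of higher calls was 36.9% and 49.3% in place of 62.3%. Among measured genes 1692 of 8548 were called lower with values as deposited and 1237 of 8539 after quantile normalization, against 876 of 8590. The wild-type pool with these lower values is also the one with kidney genes: of 16 on the array, 15 were above the floor there and 2 to 4 in each other pool. The summed intensity of 10 alveolar type 1 genes was lowest there too, 28538 against 31035 in the induced pool and 40031 to 40896 in the other 3. The sum of pericyte and smooth muscle genes was lowest there as well, at 18765. For 3 other lung lists the induced pool was lowest and wild type second lowest. Alveolar type 2 genes summed to 50317 in the induced pool, 61220 in wild type and 65749 to 68182 in the others. In the same order, fibroblast genes summed to 39873, 42711 and 43331 to 48623. Macrophage and monocyte genes summed to 11616, 14836 and 16242 to 18656. Lyz2 is in both this list and the alveolar type 2 list, and was at 5464 in the induced pool and 8559 in the uninduced pool. The part of the other tissue in the endothelial values was not tested.

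Between the transgenic normal-pressure pools Foxf1 (1.98-fold) and Emcn (2.07-fold) were called higher in SM22-rtTA and 0 of the 10 lower, where 3.00% of measured genes were higher and 4.51% lower. The other 8 were within 1.27-fold, and the median log2 ratio was -0.05. For Foxf1 and Emcn the difference between the 2 controls was thus larger than that between the induced and uninduced pools, 1.94-fold and 1.22-fold. These pools differ in genotype and in doxycycline at once, and which of these goes with the difference cannot be told apart.

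Foxf1, Emcn and Cdh5 shared an order of pools, SM22-rtTA highest, hypoxia second and induced lowest, which 1.78% of measured genes had. This order was looked for after the values were seen. For Cdh5 it was far wider at its other probe set, which read 114 in the induced pool and 368 in the uninduced pool, 1621 in SM22-rtTA, 887 in hypoxia and 476 in wild type. At that probe set SM22-rtTA was 4.41-fold above the uninduced pool, against 1.07-fold at the brighter one, and the induced pool was under the floor, at least 5.87-fold below SM22-rtTA and at least 1.33-fold below the uninduced pool. The 2 Cdh5 probe sets thus had the same highest and lowest pool and different sizes. With the mean of both, each raised to the floor first, Cdh5 was at a log2 ratio of -0.30 after induction against the uninduced pool, which is no call, and at -1.42 against SM22-rtTA, which is a call. Which transcript region each probe set reads is not given in the sources used here, so the flat values of Cdh5 above hold for 1 probe set. Wild type was the highest pool at both probe sets of Car4, at 2526 in the second, while the induced pool was at 1925 there and not the lowest, SM22-rtTA being at 1801. A pair of further probe sets for Ramp2 are shared with Vps25 and were left out; after induction against the uninduced pool they had log2 ratios of -0.21 and 0.05, where the Ramp2 probe set had -0.50.

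**Figure D4:**
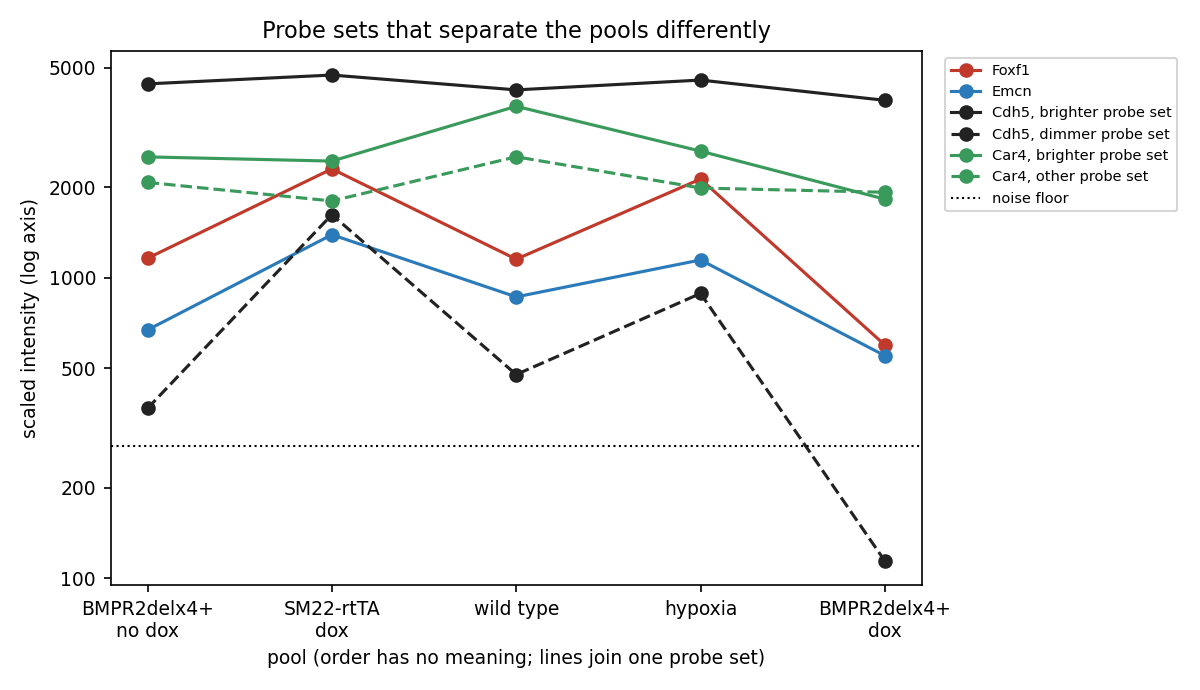
Scaled intensity (log axis) of Foxf1, Emcn and both probe sets of Cdh5 and Car4 in the 5 pools, 1 point per array, with the noise floor of 276 dotted; lines only join the points of 1 probe set. The dimmer Cdh5 probe set (dashed black) runs from 114 in the induced pool to 1621 in SM22-rtTA, a shape like that of Foxf1 and Emcn, while the brighter one stays between 3893 and 4724.

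Other endothelial genes were counted from lists to see how far the 10 stand for their cell type. Of 24 other pan-endothelial genes measured, 5 were called lower after induction against the uninduced pool and 0 higher, with a median log2 ratio of -0.21 and 20 below 0. S1pr1, the sphingosine-1-phosphate receptor that stabilises endothelial junctions, was at 1054 against 2251, Procr, the protein C receptor, at 370 against 735, and the co-receptor Eng at 2651 against 4497. Against SM22-rtTA 5 were called lower and 1 higher, with S1pr1 3.48-fold and the type 1 receptor Acvrl1 2.53-fold lower. Procr and Eng were not among the genes called there. Over all measured genes 6.11% were called lower and 9.72% higher against SM22-rtTA, and 2.57% and 5.04% against the uninduced pool. S1pr1 and Acvrl1 were also called higher in SM22-rtTA than in the uninduced pool, by 0.70 and 0.83 on the log2 scale, as Foxf1 and Emcn were. In hypoxia against wild type 4 of the 24 were called higher (Mcam, Cd34, Myct1 and S1pr1) and 0 lower. Of all measured genes 7.60% were called higher there and 11.9% lower. Against the transgenic pools, where 12.2% of measured genes were higher and 4.28% lower, 0 were higher and 2, Procr and the phosphatase Ptprb, lower. Both were lower in wild type than in those pools too, Ptprb by 2.07-fold and Procr by at least 2.23-fold, since it was at the floor there. The medians were 0.41 and -0.03, close to the 10 genes' own change of picture with the control.

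Genes of vessel segments gave the following counts after induction against the uninduced pool. Capillary genes had a median log2 ratio of -0.37 with 2 of 12 called lower, Sema3c (537 against 913) and the T-box factor Tbx2 (1106 against 1661). For arterial genes the median was -0.34, and 1 of 10 was called lower, the Notch target Hey1 (781 against 1350). For venous and activation genes it was -0.26, and 3 of 8 were called lower: the ephrin receptor Ephb4 (555 against 983) and the leukocyte adhesion molecules Vcam1 (703 against 1081) and Icam1 (1775 against 2664). No gene of these 3 lists was called higher. Over all measured genes 2.57% were called lower and 5.04% higher in this comparison. Sema3c, Tbx2, Ephb4 and Icam1 were called lower against SM22-rtTA too, while Hey1 and Vcam1 were not. For Tbx2, Vcam1 and Icam1 the wild-type pool lay lower still, at 860, 414 and 1425. Of 5 lymphatic genes Lyve1, the hyaluronan receptor, was lower (1333 against 2434) and Thy1, also a gene of fibroblasts, neurons and lymphocytes, higher (767 against the floor), with a median of 0.11. Lyve1 was at 1231 in SM22-rtTA, 1.98-fold below the uninduced pool, so its low value was not found against both controls.

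Partners of the 10 genes were followed in the same way. Of 11 measured junction partners all were below the uninduced pool and 1, occludin (Ocln, 494 against 773), was called lower, with a median log2 ratio of -0.24. Of all measured genes 2.57% were called lower there and 5.04% higher. All 6 caveolar genes were below the uninduced pool too, with a median of -0.39 and 0 called, beside the called Plvap. In hypoxia, Cavin1, the coat protein of caveolae, was at 1638 against 3023 in the transgenic pools and was the 1 caveolar gene called lower there, again beside Plvap. Cavin1 was called lower in wild type than in the same pools too, at 1982, so its low value was not found in hypoxia alone. Of 5 measured genes of Weibel-Palade bodies and haemostasis, tissue plasminogen activator (Plat) was called lower after induction (530 against 1194); it was at 548 in SM22-rtTA. Among 9 relatives of Ramp2 and Car4, adrenomedullin (Adm), the ligand of the Ramp2 receptor, was at the floor in the induced pool. Its control was at 428, at least 1.55-fold above. Ramp1 (589 against 301) and Car3 (7578 against 1967) were called higher. Against SM22-rtTA Adm was not called, while Ramp1 and Car3 were called higher there too. Car3 is known as a gene of skeletal muscle and fat, whose genes were high in the induced pool. Car3 was also at 8361 in wild type, where fat genes summed to 19886 and skeletal muscle genes to 5113. The part of these tissues in the Car3 value was not tested. In wild type Car2, Car3, Car12 and Car14 were called higher than in the transgenic pools and Car8 lower (500 against 890). Car4, at a log2 ratio of 0.58, was not called there. Of all measured genes 16.9% were called higher in that comparison and 10.2% lower.

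Of 21 measured transcription factors of endothelium and neighbouring mesenchyme, 1 was called lower after induction (Tcf21, a mesenchymal factor, 1414 against 2255) and 1 higher (Mef2c, a factor of muscle and endothelium, 1231 against 432), with a median log2 ratio of -0.07. Against SM22-rtTA 7 were called lower and 1 higher, the lowest being Epas1, the hypoxia-inducible factor 2 alpha subunit, at 1150 against 4613. Over all measured genes 6.11% were called lower and 9.72% higher there, and 2.57% and 5.04% against the uninduced pool. Epas1 was at 1542 in the uninduced pool and 3212 in hypoxia, so that both BMPR2delx4+ pools were low beside SM22-rtTA and hypoxia. In hypoxia 5 were called higher against wild type, among them Fli1 (482 against the floor) and Ets1 (2555 against 1619), ETS factors of endothelium. Of all measured genes 7.60% were called higher there. Against the transgenic pools, where 12.2% of measured genes were called higher and 4.28% lower, 2 factors were higher and 2 lower. The latter were Gata2 (1772 against 2904) and Gata6 (493 against 829). Both were also called lower in wild type than in those pools.

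**Figure D5:**
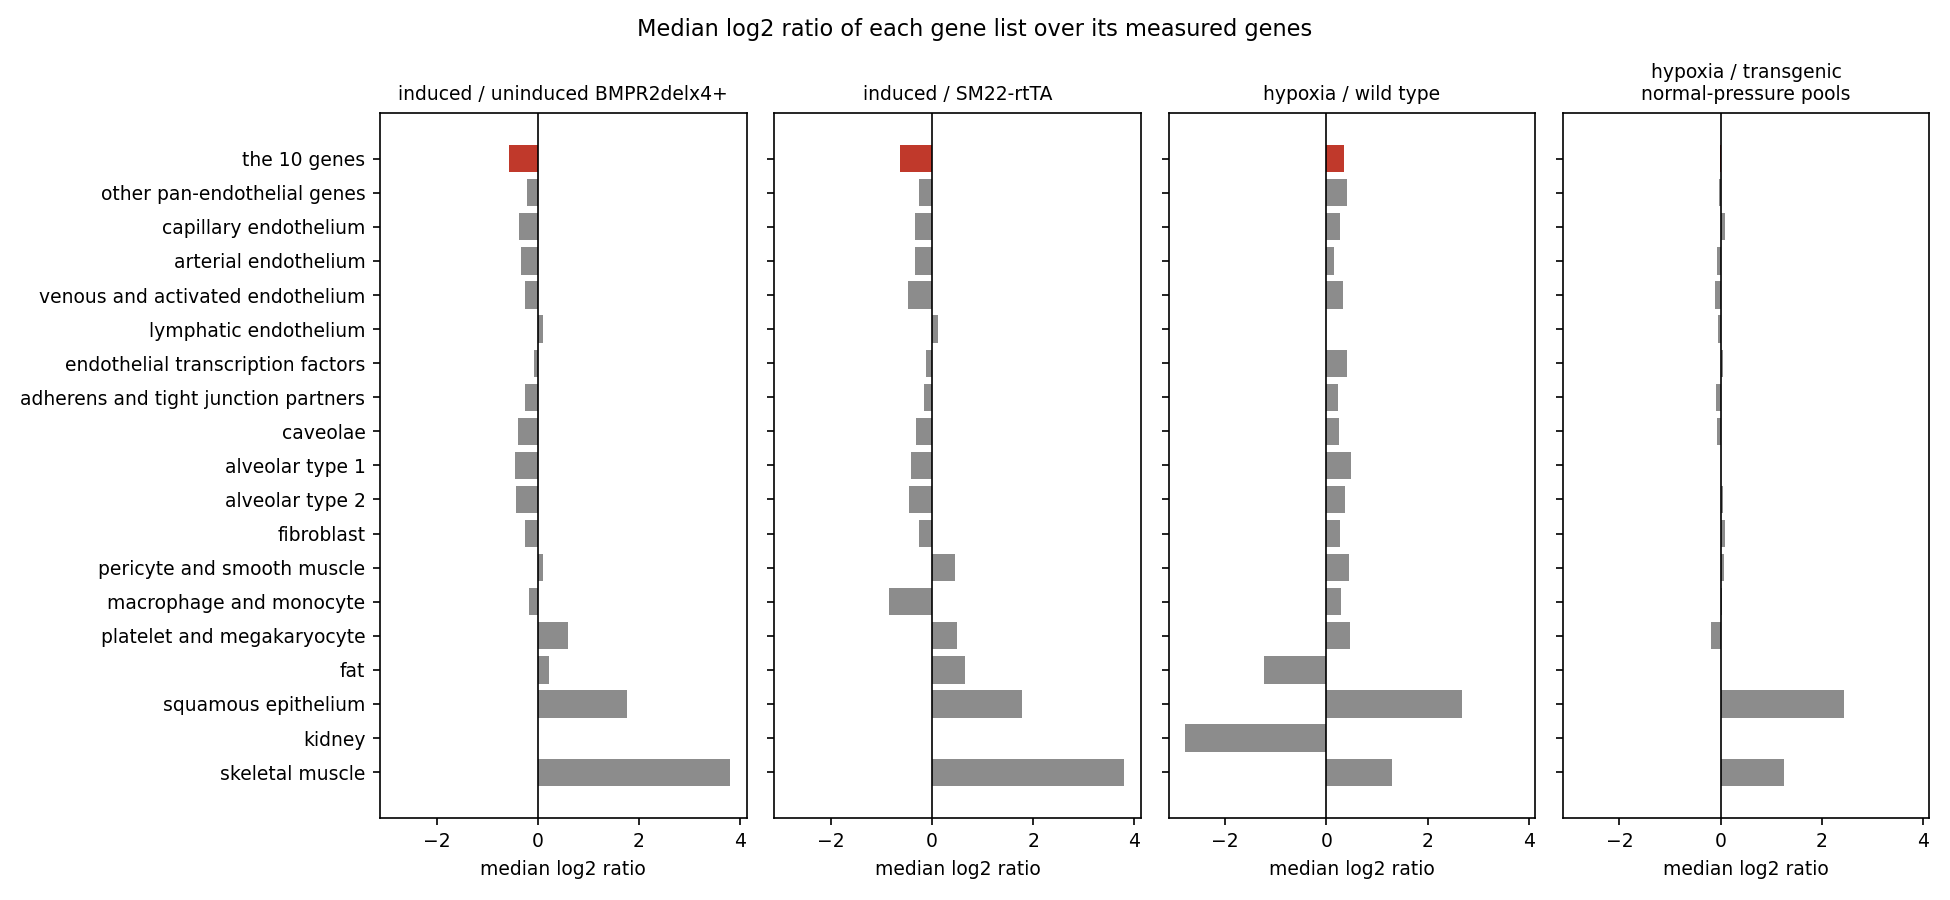
Median log2 ratio (x axis) of 19 gene lists over their measured genes in 4 comparisons, with the 10 endothelial genes in red; no error bars, since each pool is 1 array. In the induced pool the endothelial lists other than the lymphatic one (0.11) and the alveolar lists lie left of 0 (the 10 genes at -0.57, alveolar type 1 at -0.44, alveolar type 2 at -0.43) and skeletal muscle at 3.79; in hypoxia against wild type the endothelial and alveolar lists lie right of 0, apart from the lymphatic one at 0.00, and kidney at -2.79.

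Lists of other lung cell types were followed beside the 10 genes. After induction alveolar type 1 genes had a median log2 ratio of -0.44, with 10 of 10 below 0 and 1 called lower, and alveolar type 2 genes -0.43, with 11 of 11 below 0 and 3 called lower. Fibroblast genes had a median of -0.24, and pericyte and smooth muscle genes 0.11. Against SM22-rtTA these 4 medians were -0.42, -0.45, -0.26 and 0.45. In hypoxia against wild type they were 0.50, 0.37, 0.27 and 0.46, and against the transgenic pools 0.01, 0.04, 0.09 and 0.07. Macrophage and monocyte genes differed most between the controls: 5 of 9 were called higher and 1 lower in SM22-rtTA than in the uninduced pool, with a median of 0.72. Of all measured genes 3.00% were called higher there and 4.51% lower. After induction the macrophage and monocyte median was -0.17 with 2 called lower against the uninduced pool, and -0.85 with 6 called lower against SM22-rtTA. Over all measured genes 2.57% were called lower against the uninduced pool and 6.11% against SM22-rtTA. Lyz2, which is also counted in the alveolar type 2 list, was among the genes called lower against both controls. Pecam1, which leukocytes also carry, was at 2619 in the uninduced pool and 2539 in SM22-rtTA. The part of leukocytes in the Pecam1 value was not tested. Squamous epithelial genes had summed intensities of 15892 after induction and 29179 after hypoxia, against 2172 to 2732 in the 3 normal-pressure pools. Fat genes had 14644 in the induced pool, 19886 in wild type and 7273 to 8567 in the others. The part of these tissues in the endothelial ratios was not tested.

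The median profile of the 10 genes, each centred on its own mean, was -0.42 in the induced pool, 0.24 in the uninduced pool, 0.22 in SM22-rtTA, 0.13 in hypoxia and -0.14 in wild type on the log2 scale. Ramp2 lay closest to it, with a root mean square difference of 0.08 over the 5 pools, followed by Icam2 at 0.11, and Foxf1 lay farthest at 0.52. Among the 5894 other genes above the floor in all pools, the 6 most like it were Olfml3 (0.03), Adgre5 (0.04), Tgm2 (0.05), Tmem243, Myo1d and Adam9 (0.06 each). Tgm2, transglutaminase 2, which is abundant in endothelium, was at 2832 in the induced pool, 4358 in the uninduced pool, 4214 in SM22-rtTA, 4245 in hypoxia and 3602 in wild type. Adgre5, the leukocyte receptor CD97, was at 2503, 3697, 3653, 3495 and 2935 in the same order. A likeness over 5 arrays describes these pools only.

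The elevated-pressure pools were last set against each other. The induced pool was called lower than the hypoxic pool in 4 of the 10 genes: Foxf1 (3.57-fold), Pecam1 (2.15-fold), Emcn (2.08-fold) and Icam2 (1.68-fold). None of the 10 was called higher, where 11.4% of measured genes were lower and 10.7% higher, a split of 48.4% higher that became 65.1% with values as deposited, when Vwf was called higher. The median log2 ratio was -0.54. Plvap, low in both pools, was 1.09-fold apart, and Vwf was 1.39-fold higher in the induced pool.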

How the data were processed

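The authors deposited a linear intensity for each of 22626 probe sets on 5 arrays; no value was under 50, and how the authors summarised and scaled them is not given in the sources used here. Log2 intensities were shifted so that all arrays shared a median over 9046 probe sets above the median of every array, and values under the 50th percentile of the pooled values (276) were raised to it. By the platform annotation, 20380 probe sets had 1 gene, 691 several and 1555 none. Symbols were updated by gene ID from RefSeq.

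Groups came from the sample titles. Each has 1 array, so no test was run, and precision is limited by their number. The members and lists were chosen with earlier results of these data known. Named genes were the 10 members, up to 4 called genes of a list with the largest ratios, and the 6 nearest profiles; others were chosen after their values were seen. Ratios with a pool at the floor are bounds. Calls were tried on simulated pools with planted 2-fold changes only, which does not cover calls at smaller ratios. Alternatives covered scaling, floor, pseudocount (100), fold (2) and probe set summary; scaling without wild type, the exchange of the Cdh5 probe set and the mean of floored probe sets were added after seeing the data. Python 3.11.15, numpy 2.4.6, pandas 2.3.3 and matplotlib 3.10.9 were used.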

Additional observations from a re-analysis of the deposited data

Results flagged for a closer look

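For 3 of the 10 genes the ratio lay past 1.5-fold in opposite directions in the 2 forms of raised pressure, each against its matched control, and with 1 array per pool the difference was not tested. Among measured genes 0.594% were called lower after induction and higher in hypoxia, the direction of all 3. Pecam1 had log2 ratios of -0.80 after induction and 1.30 in hypoxia, a difference of -2.11. Foxf1 had -0.96 and 0.89, a difference of -1.84, and Cldn5 had -0.63 and 0.73, a difference of -1.36. Against the transgenic normal-pressure pools the hypoxic ratios were 0.32, 0.38 and -0.13 for Pecam1, Foxf1 and Cldn5, so that none of these was past 1.5-fold with that control.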

How the results depend on the processing

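Of 197 counts and medians recomputed under the alternatives, 186 stayed within 1.5 times the main count or within 0.34 of the main median, the SD between the transgenic normal-pressure pools. At a 2-fold threshold the 5 genes called lower after induction became 0 and the 6 against SM22-rtTA became 2. The 3 higher in hypoxia became 1, and the 1 lower in hypoxia against the transgenic pools became 0. The 3 lower in wild type became 0, and the 2 higher in SM22-rtTA became 1. The share of all measured genes past 2-fold is not given here, so these counts stand without a background. With values as deposited, 2 were lower in hypoxia against the transgenic pools, 6 were lower in wild type and 1 was higher in the induced than in the hypoxic pool. Quantile normalization gave 5 lower in wild type, and scaling without the wild-type pool 2 lower in hypoxia against the transgenic pools. The same 5 genes were called lower after induction under all 3 scalings. Of 554 single-gene ratios 17 moved by more than 0.34, all of Cdh5 or Car4 with another probe set or the mean of both, and 0 called ratios changed sign. Car4 at its other probe set was at -0.11 after induction and 0.10 against SM22-rtTA, and Cdh5 at -2.55 against SM22-rtTA. The mean of both Cdh5 probe sets after induction was -0.93 where the value under the floor was used as it stood, and -0.30 where it was raised to the floor first. No paired analysis was possible because each group has 1 array.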
